A study of Rattus norvegicus with 18 samples.

Results

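Matrix metalloproteinases and their tissue inhibitors were followed in the proximal stump of the cut rat sciatic nerve, through the 10 genes Mmp2, Mmp3, Mmp9, Mmp10, Mmp12, Mmp13, Mmp14, Timp1, Timp2 and Timp3. A probe was taken where the array files name one of these genes or an accession that belongs to it. This gave 11 of the 41012 probes on the array, 10 genes of 35279 gene names, with 2 probes for Mmp2 and 1 for every other gene. RNA was measured on 18 one-colour Agilent arrays, 3 at each of 0, 0.5, 1, 3, 6 and 9 h after the operation. All groups were adult male Sprague-Dawley rats of 180 to 220 g that were anaesthetized with a mixture of trichloroacetaldehyde monohydrate, magnesium sulfate and sodium pentobarbital. A stretch of 1 cm of the left sciatic nerve was resected, and 0.5 cm of the proximal stump was collected at the given hour, so by their labels the groups differ only in time. The 0 h group carries no other label than its hour, and no sham-operated group was among the samples analysed here. Whether the RNA on an array came from a single rat or from several is not stated, so the P-values measure the spread between these samples, which may be technical.

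Matrix metalloproteinases are zinc-dependent enzymes that cut collagens, laminin, fibronectin and many cell-surface and secreted proteins. Most are secreted as inactive proenzymes and activated by other proteases, whereas Mmp14 sits in the cell membrane, where it activates the proenzyme of Mmp2 with the help of Timp2. The tissue inhibitors of metalloproteinases bind the active enzymes and block them. In injured peripheral nerve these enzymes are known for opening the blood-nerve barrier, for the breakdown of basal lamina and myelin proteins, and for the entry of blood leukocytes. An array of RNA says nothing of whether an enzyme was secreted, activated or inhibited.

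Values are log2 normalized signals, the log2 brightness of a probe relative to the 75th percentile of its own array, so that 0 is a fairly bright probe and negative values are dimmer. They serve to compare 1 probe between arrays, not 1 probe with another. Probes entered the limma fit where some time-point had them well above background on each of its 3 arrays, and a change was called at an unadjusted P-value under 0.01 together with a Benjamini-Hochberg adjusted P-value under 0.05 over all 32110 tested probes. The share of spots well above background ran from 65.9% to 93.5% between arrays, no spot was saturated, and arrays of 1 time-point correlated at 0.958 to 0.993 over probes. The arrays fell on 3 scan days. Day 1 held the 0 h and 0.5 h groups, day 2 the 1, 3 and 6 h groups with 2 arrays of 9 h, and day 3 the last 9 h array, replicate 3. Time and scan day therefore cannot be told apart in any contrast of 1 to 9 h with 0 h. Contrasts with 1 h, made almost entirely within 1 scan day, are given beside them. No slide held arrays of more than 1 time-point, so slide and time cannot be told apart in any contrast, those with 1 h included. Skeletal muscle RNA also varied between arrays. The log2 of the summed signal of 10 muscle markers was 6.83 to 10.88 at 0 h and 1.60 to 8.96 from 1 h on. None of the 10 markers was called over time (36.3% of all genes), and the part of muscle RNA in the results was not tested.

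All 10 genes passed the filter. Mmp2, Mmp13, Mmp14, Timp1, Timp2 and Timp3 were well above background on all 18 arrays, and Mmp10 on 13. Mmp3, Mmp9 and Mmp12 were well above background on 11, 9 and 8 arrays and passed only through the later time-points, so that they could hardly enter the test without differing over time. The same limit holds for Mmp7, Mmp8, Il6, Tnf, Elane and Ltf of the lists below. They were well above background on no array of 0 h, so the shares called in their lists partly follow from the filter.

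Against 0 h, Mmp3, Mmp9, Mmp13 and the inhibitor Timp1 rose from 3 h on and Mmp12 from 6 h on, while Timp2, Mmp2 and Mmp14 fell slightly. Against 1 h, Mmp3, Mmp9 and Timp1 were called higher from 3 h on and Mmp13 from 6 h on, and Mmp12 was not called. Compared with 0 h, Mmp3 was at least 52.6-fold higher at 9 h, 2 of its 3 arrays at 0 h being not well above background, Mmp9 at least 23.4-fold, Mmp12 at least 6.67-fold, Mmp13 3.58-fold and Timp1 2.99-fold, with 3 arrays in each group. The bounds here and below hold only for the processed signal and its background subtraction, and do not rest on a detection limit of each probe. Another background correction gave smaller changes for Mmp3, Mmp9 and Mmp12, given below. Over all time-points 8 of the 10 genes were called in the F-test, all but Mmp10 and Mmp14 and Mmp2 by its dimmer probe alone, where 36.3% of the 27198 tested gene names were called. At 0.5 h no gene had risen (4.7% of all genes had) and only Mmp2 had fallen (1.92%), by its dimmer probe. At 1 h none was called higher (3.89% of all genes) or lower (2.21%) with limma, although 2 had an unadjusted P-value under 0.05, Mmp9 and Mmp12.

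At 3 h 4 genes were higher than at 0 h, Mmp3, Mmp9, Mmp13 and Timp1, against 7.7% of all genes, and none was lower, against 7.09%. At 6 h these 4 and Mmp12 were higher (13.1% of all genes) and Mmp2, Mmp14 and Timp2 were lower (13.5%). At 9 h the same 5 genes were higher (17% of all genes), and Mmp2 and Timp2 lower (15.9%). The median change of the 10 genes was 0.82 at 3 h, 1.60 at 6 h and 1.47 at 9 h, whereas the median of all probes stayed within 0.04 of 0 in each contrast. Against 1 h, 4 genes were higher at 3 h (6.07% of all genes) and none lower (4.95%), 5 were higher at 6 h (12.5%) and 2 lower (13.2%), and 4 were higher at 9 h (12.5%) and 2 lower (14.4%).

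**Figure D1:**
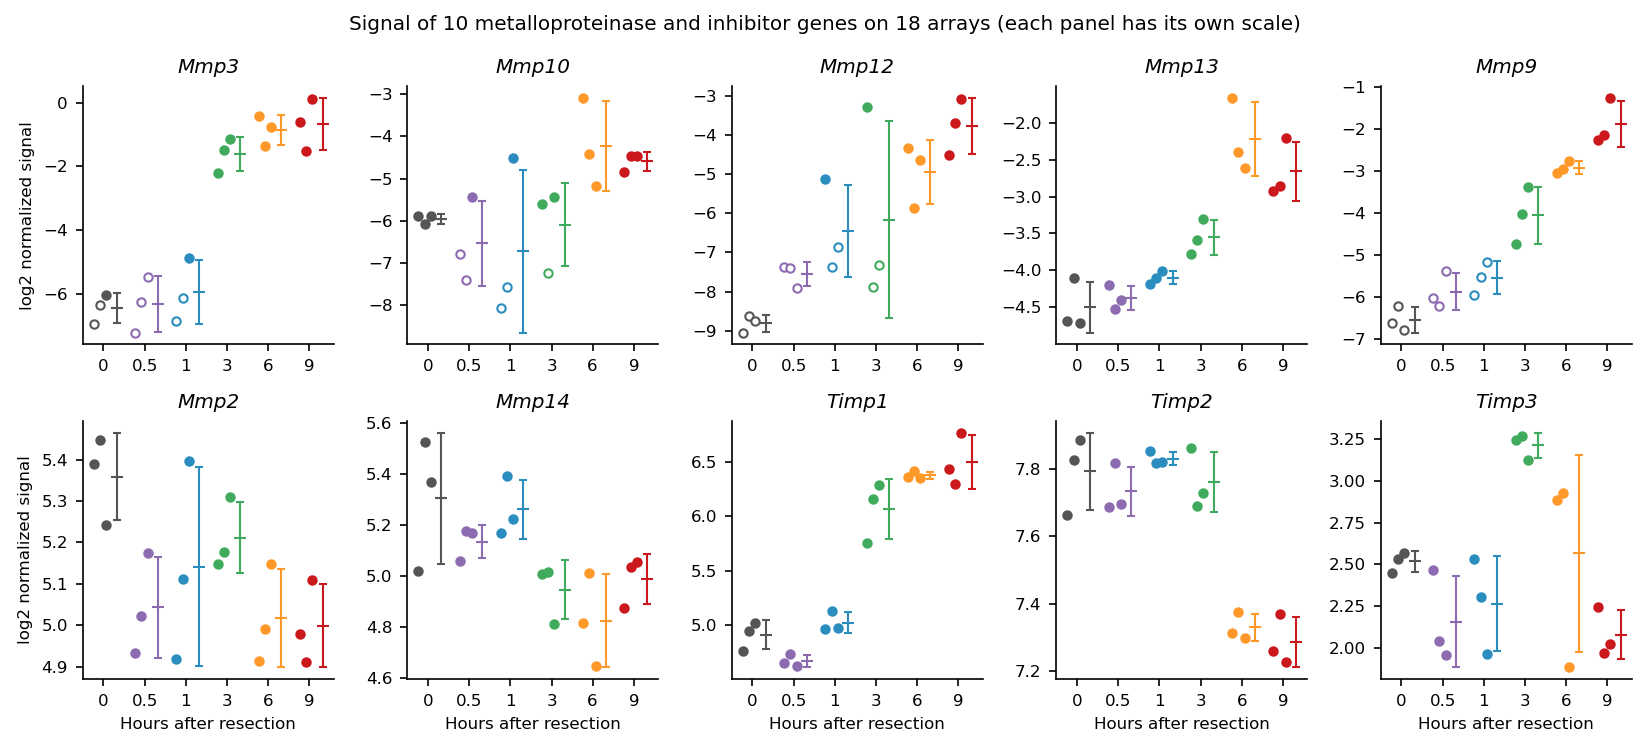
Log2 normalized signal of the reported probe of each gene (vertical axis, its own scale in each panel) by hours after resection (horizontal axis). Each circle is 1 array, filled where the probe was well above background and open where it was not, and the bar beside it is the mean ± SD of 3 arrays. Mmp3 stands at -7.21 to -4.86 up to 1 h and at -2.19 to 0.12 from 3 h on, and Timp2 drops to 7.23 to 7.38 at 6 and 9 h.

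Mmp3, Mmp10, Mmp12 and Mmp13 lie close together on chromosome 8. Mmp3 (stromelysin-1) and Mmp10 (stromelysin-2) are close relatives that cut proteoglycans, laminin and fibronectin and activate other proenzymes. Both probes are shown because they decide which of the relatives was measured. On the rn4 build that the files use, the Mmp3 probe spans chr8:4325061-4325526 (plus strand) and the Mmp10 probe chr8:4373403-4374134 (plus strand), each wider than the 60 bases of a probe, so each crosses an exon junction.
Mmp3 probe: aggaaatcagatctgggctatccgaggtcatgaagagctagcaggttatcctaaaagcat
Mmp10 probe: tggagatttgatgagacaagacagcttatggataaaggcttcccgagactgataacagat
Laid along each other without gaps in any offset, the 2 probes matched at 21 of 60 bases at most, and the probes of Mmp3, Mmp10, Mmp12 and Mmp13 at 18 to 26 in any pair. Whether a probe binds the RNA of a relative was not tested.

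Of the 10 genes Mmp3 had the largest fitted change, while for Mmp9 and Mmp12 only bounds hold. Its signal was -6.96, -6.35 and -6.04 at 0 h, where 1 of 3 arrays was well above background, and -7.21, -6.27 and -5.48 at 0.5 h. At 1 h it was -6.85, -6.13 and -4.86, which overlapped the arrays of 0 h, and 1 of 3 arrays was well above background. The changes against 1 h below are thus set against a dim group. It then stood at -2.19, -1.50 and -1.15 at 3 h. These 3 arrays lay above every array of the first hour. The signal was -0.43, -1.36 and -0.76 at 6 h and -0.59, -1.51 and 0.12 at 9 h. The change against 0 h was 4.84 ± 0.55 (SE) on the log2 scale at 3 h (adjusted P = 7.7e-05), 5.60 at 6 h (1.2e-05) and 5.79 at 9 h (7.4e-06). Most of the rise had thus been measured by 3 h, and 9 h differed from 3 h by 0.95 ± 0.55 (adjusted P = 0.27), not called. Against 1 h the changes were 4.33, 5.09 and 5.29 (adjusted P = 0.00036, 3.8e-05 and 2.0e-05), those at 3 and 6 h within 1 scan day, and with scan day as a block the change at 9 h was 4.90 (adjusted P = 0.00016). With another background correction, normexp on the mean signals, they were 2.89, 3.27 and 3.45 at 3, 6 and 9 h against 0 h, still called, while the 3 h change against 1 h was 1.82 and no longer called.

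Mmp10 did not show the course of Mmp3. Its signal was -5.90, -6.09 and -5.89 at 0 h, all well above background. It spread over -7.41 to -5.43 at 0.5 h, -8.08 to -4.51 at 1 h and -7.24 to -5.45 at 3 h, with 4 of these 9 arrays well above background. At 6 h it was -3.08, -4.41 and -5.18 and at 9 h -4.85, -4.47 and -4.46, above all arrays of 0 h. The change against 0 h was 1.73 ± 0.82 at 6 h (adjusted P = 0.13) and 1.37 ± 0.82 at 9 h (0.21), neither called. The 6 h arrays were called higher than those of 1 h by 2.50 (adjusted P = 0.037), with overlapping groups. Leaving out replicate 1 of 6 h ended that call (1.93, adjusted P = 0.13), as did leaving out the first or second array of 1 h (1.82 and 2.07), among others, and under normexp the sign turned, to -0.28.

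Mmp12 (macrophage elastase, an enzyme of elastin breakdown that macrophages are known to make) was not well above background on any array of 0 h or 0.5 h. The measured signal at 0 h was -9.04, -8.63 and -8.75. On 1 array of 1 h it was -5.12 and on 1 array of 3 h -3.29, while the other 4 arrays of those hours lay between -7.88 and -6.85 and below background. These single arrays stood apart from their replicates. At 6 h all 3 arrays were well above background at -4.32, -5.86 and -4.64, and at 9 h at -4.52, -3.69 and -3.10. Since only a bound holds at 0 h, Mmp12 was at least 2.96-fold higher at 6 h and at least 6.67-fold at 9 h, the dim group being taken at the lowest signal among probes well above background on each array, or at its own signal where that was higher. The fitted changes were 3.86 ± 0.93 (adjusted P = 0.0076) and 5.04 ± 0.93 (0.0011). At 1 and 3 h the fitted changes were 2.36 and 2.64 and not called (adjusted P = 0.15 and 0.076). Against 1 h it was not called at 3, 6 or 9 h (adjusted P = 0.90, 0.26 and 0.046, the last with an unadjusted P of 0.012), with changes of 0.28 at 3 h and 2.68 at 9 h and 6 h between them. Under normexp the 6 h and 9 h changes against 0 h were 0.76 and 1.35 and not called.

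Mmp13 (collagenase-3, which cuts fibrillar collagen) was well above background on all arrays. It was -4.68, -4.10 and -4.71 at 0 h, between -4.52 and -4.01 on the 6 arrays of 0.5 h and 1 h, and -3.78, -3.58 and -3.30 at 3 h. At 6 h it was -1.66, -2.39 and -2.61 and at 9 h -2.92, -2.85 and -2.20. The arrays of 3, 6 and 9 h all lay above those of the first hour, and 6 h and 9 h above 3 h. The change was 0.94 ± 0.25 at 3 h (adjusted P = 0.023), 2.27 at 6 h (2.9e-05) and 1.84 at 9 h (0.00012). Leaving out replicate 1 or 3 of the 0 h group, or 2 or 3 of the 3 h group, ended the 3 h call (0.82 to 0.96, adjusted P = 0.066 to 0.082). Against 1 h the change at 3 h was 0.54 and not called (adjusted P = 0.20), and those at 6 and 9 h were 1.87 and 1.44 (0.00016 and 0.00084). Under normexp the changes against 0 h were 1.28, 1.49 and 1.17, none called.

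Along chromosome 8 in rn4, the probes run in the order Mmp13, Mmp12, Mmp1b, Mmp3, Mmp1, Mmp10, Mmp8, Mmp27, Mmp20 and Mmp7, from position 4168554 to the start of the Mmp7 probe at 4533647. Of these 10 genes 8 were tested, and Mmp1 and Mmp20 were each well above background on 1 array only. Mmp8 (neutrophil collagenase) was not well above background at 0 h and was at least 29.8-fold higher at 3 h, 27.2-fold at 6 h and 16.4-fold at 9 h. Mmp7 (matrilysin) was also dim at 0 h and at least 2.35-fold, 3.97-fold and 2.43-fold higher. Mmp1b was called at 9 h alone, with a change of 1.68 (adjusted P = 0.019), and Mmp27 had -0.42, -0.47 and -0.72 at the 3 hours, not called. The difference between neighbours was not tested.

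**Figure D2:**
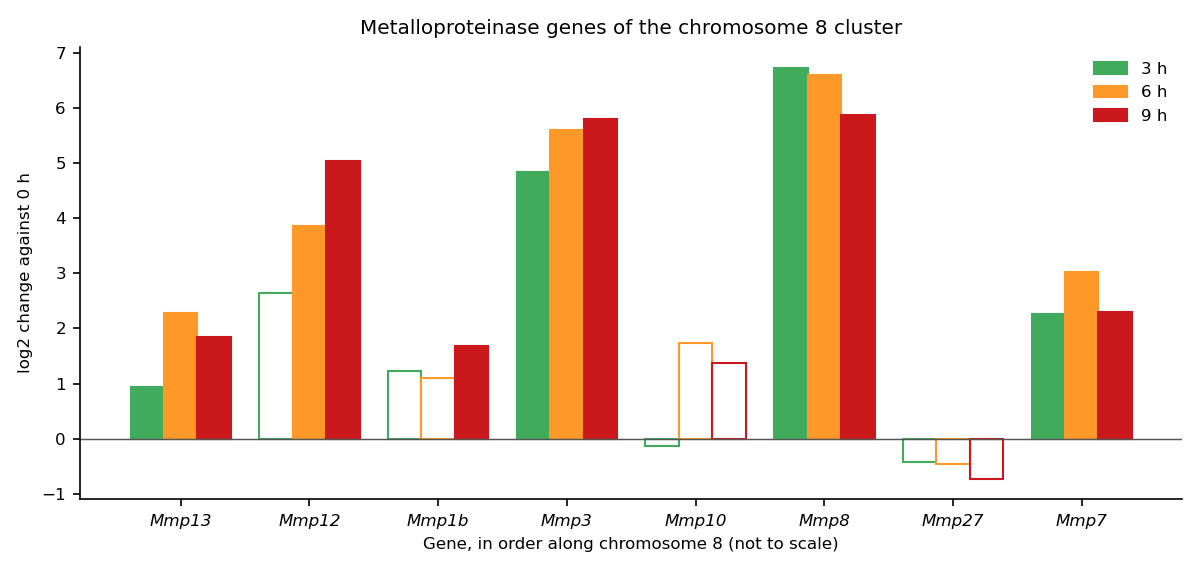
Fitted log2 change against 0 h (vertical axis) at 3, 6 and 9 h for the 8 tested metalloproteinase genes of the chromosome 8 cluster, in gene order but not to scale (horizontal axis). Filled bars passed the test and open bars did not; the fitted changes of Mmp12, Mmp8 and Mmp7 are set against a group below background. The fitted changes of Mmp3 go from 4.84 to 5.79, and Mmp10 and Mmp27 have no filled bar.

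The promoters of 4 genes of this cluster are shown because its genes moved together in part. Several of its genes are known from other tissues as targets of AP-1, the dimer of Fos and Jun proteins. RefSeq promoter windows, 250 bases before and 50 after the start on the GRCr8 build, were found for 7 of the 10 genes, Mmp3, Mmp10, Mmp12, Mmp13, Timp1, Timp2 and Timp3. The AP-1 motif TGANTCA (N is any base, the same on both strands) was present in all 4 metalloproteinase windows and in none of the 3 Timp windows, against 7.33% of 33469 rat promoter windows. It began 71 bases before the start in Mmp3, 61 in Mmp10, 87 in Mmp12 and 66 in Mmp13. In the 110 bases before the start that follow, capitals mark this motif, and in Timp1 the related TGAGTAA, which was searched after the sequence had been read and is in 2.9% of windows on either strand.
Mmp3 chr8:12925171-12925280 (GRCr8, plus strand): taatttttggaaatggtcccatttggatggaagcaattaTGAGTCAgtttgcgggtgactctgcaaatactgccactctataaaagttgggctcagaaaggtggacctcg
Mmp10 chr8:12974597-12974706 (GRCr8, plus strand): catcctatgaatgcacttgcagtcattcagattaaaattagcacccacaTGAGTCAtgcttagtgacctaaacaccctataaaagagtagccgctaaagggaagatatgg
Mmp12 chr8:12866542-12866651 (GRCr8, plus strand): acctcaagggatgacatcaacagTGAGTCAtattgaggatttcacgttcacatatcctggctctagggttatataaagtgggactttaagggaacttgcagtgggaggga
Mmp13 chr8:12782719-12782828 (GRCr8, plus strand): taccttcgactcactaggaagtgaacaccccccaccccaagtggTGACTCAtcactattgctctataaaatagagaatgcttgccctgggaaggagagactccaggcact
Timp1 chrX:3771123-3771232 (GRCr8, minus strand): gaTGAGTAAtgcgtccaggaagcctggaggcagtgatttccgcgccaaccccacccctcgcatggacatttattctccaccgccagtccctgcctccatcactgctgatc

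The 4 windows also held a TATA box (TATAAA, either strand, 14.2% of windows) 32 bases before the start in Mmp3, 33 in Mmp10, 39 in Mmp12 and 47 in Mmp13. The PEA3 motif of Ets factors, AGGAAG on either strand, is common (34.5% of windows) and was in Mmp3, Mmp13 and Timp1. The STAT motif TTCNNNGAA (8.87%) was in none of the 7 windows. Among 13 other metalloproteinase genes with a window, 3 held the AP-1 motif, Mmp1, Mmp7 and Mmp20. Of the other cluster genes, Mmp8, which rose, held none, nor did Mmp1b and Mmp27. Mmp1 and Mmp20 hold the motif but were well above background on 1 array each, and Mmp10 was not called against 0 h. Whether the motif goes with a rise was not tested. A match is a match of letters and does not show that a factor binds.

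**Figure D3:**
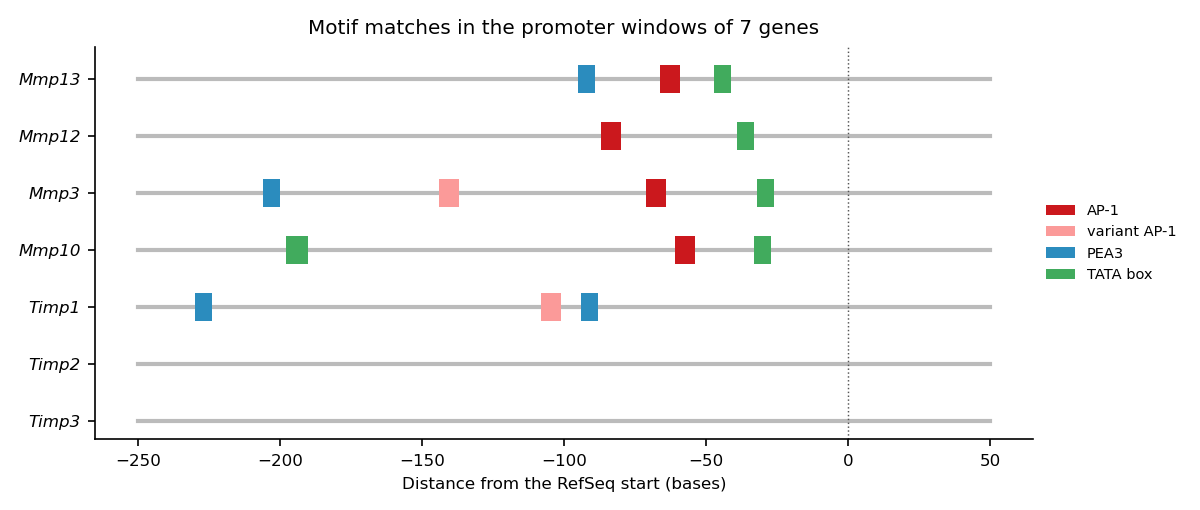
Positions of motif matches on either strand (coloured boxes) in the 300-base RefSeq promoter windows of 7 genes, by distance from the start in bases (horizontal axis, 0 is the start). The 4 metalloproteinase genes have an AP-1 match between 61 and 87 bases before the start and a TATA box nearer to it, and Timp2 and Timp3 have no match.

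Mmp9 (gelatinase B, which cuts denatured and basement membrane collagen and is stored in neutrophil granules) was not well above background on any of the 9 arrays up to 1 h. Its measured signal was -6.62, -6.21 and -6.79 at 0 h. It was then -4.74, -4.02 and -3.38 at 3 h, and -3.05, -2.93 and -2.75 at 6 h. At 9 h it was -2.25, -2.13 and -1.25, and from 3 h to 9 h the arrays of successive time-points did not overlap. Mmp9 was at least 5.18-fold higher at 3 h than at 0 h, at least 11.4-fold at 6 h and at least 23.4-fold at 9 h. The fitted changes were 2.49, 3.63 and 4.66, each ± 0.35 (adjusted P = 0.00036, 9.1e-06 and 9.1e-07). In a contrast added after the values were seen, 9 h was higher than 3 h by 2.17 (adjusted P = 0.0014). In that contrast 3 of the 10 genes were higher (8.25% of all genes) and 2 were lower (9.05%). Against 1 h, Mmp9 was higher by at least 2.64-fold at 3 h, 5.81-fold at 6 h and 11.9-fold at 9 h. The 3 h call against 1 h was lost when 1 array was left out, be it the first of 1 h (1.29) or the second (1.47) or the third (1.16) of 3 h, and under normexp the changes at 3 and 6 h against 0 h were 1.76 and 1.58 and not called, while that at 9 h was 2.42 and was called (adjusted P = 0.019). Normexp also ended the calls against 1 h at 6 h and 9 h (adjusted P = 0.59 and 0.21) and that of 9 h against 3 h (0.39). The probe was printed in 10 spots, whose SD on an array was 0.17 in the median and 0.65 at most.

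Mmp2 (gelatinase A, which fibroblasts and Schwann cells are known to make without injury) and Mmp14, the membrane enzyme that activates it, were bright at 0 h and changed little. The brighter Mmp2 probe was 5.39, 5.45 and 5.24 at 0 h, and 4.92, 4.99 and 5.15 at 6 h. At 9 h it was 4.98, 4.91 and 5.11, below all arrays of 0 h. Its change of -0.36 ± 0.12 at 9 h was called (adjusted P = 0.032), but not in the F-test over time (adjusted P = 0.12), and it was lost when any of 12 of the 18 arrays was left out and with quantile normalization or normexp. The dimmer probe, at 2.27 to 2.61 at 0 h, was called lower at 0.5 h, 6 h and 9 h, by -0.49, -0.49 and -0.58 (adjusted P = 0.037, 0.011 and 0.0031). The calls for Mmp2 over time and at 0.5 h and 6 h rest on the dimmer one. Against 1 h the brighter probe had -0.12 at 6 h and -0.14 at 9 h, not called (adjusted P = 0.49 and 0.43), and the dimmer one -0.33, not called (0.071), and -0.42, called (0.024).

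Mmp14 was 5.02, 5.52 and 5.37 at 0 h and 4.81, 5.01 and 4.65 at 6 h. Its replicate 1 at 0 h lay close to the highest array of 6 h, and the groups did not overlap. The change was -0.48 ± 0.13 at 6 h (adjusted P = 0.014), and -0.32 at 9 h, which was not called (0.069). Against 1 h it was -0.44 at 6 h, called (0.023), and -0.27 at 9 h, not called (0.14), and the call against 1 h was lost under 7 settings (adjusted P = 0.050 to 0.38). The 6 h call against 0 h was lost without the second array of 0 h (-0.37) or the third of 6 h (-0.39), with quantile normalization (-0.32), in the deposited matrix (-0.30) and under normexp (-0.43).

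**Figure D4:**
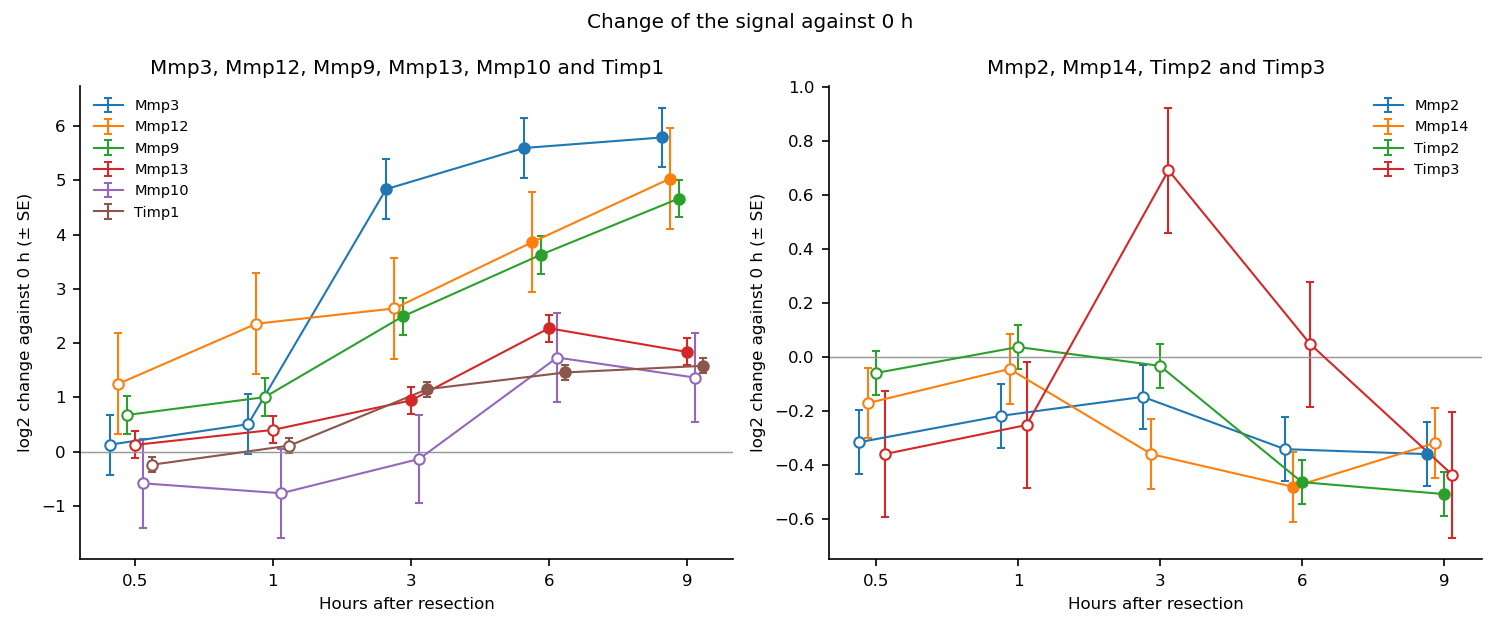
Log2 change against 0 h (vertical axis, a different scale in each panel) of the reported probe by hours after resection (horizontal axis), with bars of ± 1 SE from the limma fit. Filled circles passed the test and open ones did not. Mmp3 reaches 4.84 at 3 h and 5.79 at 9 h, Mmp9 goes from 2.49 to 4.66, and Timp3 has a single high point at 3 h.

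Timp1 (a secreted inhibitor known to be induced in injured tissue) was called higher than at 0 h from 3 h on. The 0 h arrays read 4.77, 4.95 and 5.02, those of 0.5 h 4.66, 4.73 and 4.62, and those of 1 h 4.97, 5.13 and 4.97. At 3 h it was 5.75, 6.16 and 6.29, above every earlier array. It stood at 6.36, 6.41 and 6.35 at 6 h and at 6.43, 6.29 and 6.77 at 9 h. The change was 1.15 ± 0.14 at 3 h (adjusted P = 0.00012), 1.46 at 6 h (8.7e-06) and 1.58 at 9 h (3.5e-06), and 1.04, 1.35 and 1.47 against 1 h. It was called at 3, 6 and 9 h, against 0 h and against 1 h, under each alternative that could be fitted. The rise from 3 h to 9 h, 0.43 (adjusted P = 0.049), was lost without the first array of 3 h (0.27) or the third of 9 h (0.30), among others. The probe crosses an exon junction (rn4 chrX:12542700-12543703, minus strand), and its 10 spots had a median SD of 0.059.

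Timp2 (the inhibitor that takes part in the activation of the Mmp2 proenzyme) fell late. It was 7.66, 7.83 and 7.89 at 0 h and between 7.69 and 7.86 on the 9 arrays of 0.5, 1 and 3 h. At 6 h it was 7.31, 7.38 and 7.30 and at 9 h 7.26, 7.37 and 7.23, below all 12 earlier arrays. The change was -0.46 ± 0.08 at 6 h (adjusted P = 0.0010) and -0.51 at 9 h (0.00039), or 1.42-fold lower at 9 h. Against 1 h it was -0.50 and -0.55, both called (0.00064 and 0.00027). With quantile normalization the change against 0 h was -0.12 and -0.13, and in the deposited matrix, whose sorted values are nearly the same on every array, -0.10 and -0.13, not called. The fall of this bright probe therefore depends on how the arrays are scaled.

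Timp3 (an inhibitor that binds to the extracellular matrix and also blocks ADAM proteases) was highest at 3 h. It was 2.45, 2.53 and 2.57 at 0 h, between 1.96 and 2.53 on the 6 arrays of 0.5 h and 1 h, and 3.24, 3.26 and 3.13 at 3 h. At 6 h replicates 1 and 2 were at 2.88 and 2.93 and replicate 3 at 1.89, and at 9 h the signal was 2.25, 1.97 and 2.02. The 3 h arrays lay above all others. The change at 3 h was 0.69 ± 0.23 against 0 h (adjusted P = 0.064, not called here but called under 6 of the other settings, with adjusted P = 0.010 to 0.050) and 0.94 against 1 h (0.020, called), and 9 h was lower than 3 h by -1.13 (0.0058). The call against 1 h did not survive leaving out the third array of 1 h (0.79), or the first (0.93) or second (0.92) of 3 h.

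Across the 18 arrays Mmp3 and Timp1 had a Pearson r of 0.970, Mmp3 and Mmp9 0.938, Mmp9 and Timp2 -0.866, and Mmp3 and Timp3 0.197. These values describe 18 arrays that share 6 time-points and 3 scan days and carry no test. Among 11323 candidate genes the courses most like that of Mmp3 were Sectm1b (r = 0.985), Ugdh (0.982) and Osmr (0.982). For Mmp9 they were Aqp9 (0.988), Adam8 (0.983) and Hk3 (0.982). For Mmp12 they were Asprv1 (0.859), Dnai2 (0.829) and Mthfd1l (0.828).

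Of the other metalloproteinases, 16 genes were on the array, 13 were tested and 8 were called over time (36.3% of all genes), Mmp7, Mmp8, Mmp11, Mmp15, Mmp16, Mmp19, Mmp23 and Mmp24. Mmp7 and Mmp8 were not well above background at 0 h and passed the filter only through other time-points. Mmp8 was already called higher at 0.5 h (adjusted P = 0.00034), when none of the 10 genes was. Mmp23 fell at each time-point, by 0.30 to 0.79 on the log2 scale. Mmp15 (a membrane enzyme) was higher at 1 h alone (0.74, adjusted P = 0.0052). Mmp16, another membrane enzyme, has 2 probes, which disagree: at 9 h the brighter was lower, with -0.67 (0.0029), and the other was called higher.

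All 4 other inhibitors were tested and 3 were called over time (36.3% of all genes). Tfpi2, a serine protease inhibitor that also blocks metalloproteinases, rose by 1.79 at 1 h (adjusted P = 0.00042) and was 1.40 to 2.01 higher from 3 h on. A2m, a broad protease trap of plasma, was lower at 0.5 h (-0.79, 0.0081) and at 1 h (-0.69) and higher at 9 h (0.55). Reck, a membrane-bound inhibitor, was lower at 9 h (-0.39, 0.0027), as was Timp4, the remaining tissue inhibitor (-0.65, 0.021), which was not called over time (0.088).

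The ADAM and ADAMTS proteases, some of which Timp3 inhibits, had 7 of 16 genes called over time, near the 36.3% of all genes, 7 of the 16 being higher and 1 lower at 6 h (13.1% and 13.5% of all genes), while at 9 h 6 were higher and 2 lower (17% and 15.9%). Adamts1, which cuts proteoglycans, was 2.79 higher at 0.5 h (adjusted P = 0.00018) and 2.46 to 3.34 higher later. Adam8, a membrane protease of leukocytes, rose by 1.97 at 3 h and 3.39 at 9 h (6.4e-07). Adamts8 was 2.46 higher at 9 h (0.00034) and Adamts9 1.12 higher (0.00022), while Adamts12 was lower (-0.95, 0.00046).

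Of the proteases and partners that activate or bind these enzymes, 11 of 12 genes were tested and 8 were called over time (36.3% of all genes), with 7 higher at 3 h and 8 at 6 h and 9 h (7.7%, 13.1% and 17% of all genes). Plaur, the receptor of urokinase, was 2.96 higher at 3 h (adjusted P = 1.8e-05), and Plau, urokinase itself, 0.86 (0.0086). Thbs1 was 2.76 higher at 9 h (0.00012), and Cd44, a surface receptor that can hold Mmp9, 1.91 (2.1e-06). The lower gene at 6 h and 9 h (13.5% and 15.9% of all genes) was Bsg, a surface inducer of metalloproteinases (-0.30 and -0.33, adjusted P = 0.024 and 0.012).

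Of 14 genes for matrix proteins that these enzymes cut, 8 were called over time, against 36.3% of all genes. At 9 h 1 was higher and 7 were lower (17% and 15.9% of all genes), Lamc1 only by a probe other than its brightest. Col3a1 fell by 0.63 on the log2 scale (adjusted P = 0.00045), Lama2 by 0.52 (0.0093), Col1a1 by 0.50 (0.0012) and Dag1, which encodes dystroglycan, by 0.50 (0.0034). The gene that rose was Vcan, versican, with 1.41 at 9 h (3.0e-05). The median of the 14 genes was -0.25 at 9 h.

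Of 16 genes for cytokines and transcription factors known to induce metalloproteinases, 14 were called over time (36.3% of all genes), and 7 were higher and 1 lower at 0.5 h (4.7% and 1.92% of all genes). Fos rose by 5.69 at 0.5 h (adjusted P = 5.2e-07) and was 2.55 higher at 9 h, and Jun by 1.93 at 0.5 h (2.2e-05) and was not called from 3 h on. Junb was 3.25 higher at 0.5 h (2.3e-05). Fosl1, which encodes the Fos relative Fra-1, had 0.12 at 0.5 h, not called, and 6.34 at 3 h (5.3e-09), the first time-point at which Mmp3 was called. Il6 was not well above background at 0 h and was at least 13.6-fold higher at 0.5 h and at least 115-fold at 3 h. Il1b was 2.68 higher at 0.5 h (0.00052) and 4.43 at 6 h (1.3e-06).

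Most tested neutrophil markers were higher at 6 and 9 h, as were Mmp8, Mmp9 and Mmp12, while the summed level of macrophage markers was not. In these bulk samples more cells of a type and more RNA per cell cannot be told apart. Of 13 listed neutrophil marker names 10 were on the array, 8 were tested and 6 were called over time (36.3% of all genes), all 6 higher at 3, 6 and 9 h (7.7%, 13.1% and 17% of all genes), with a median change of 3.10 at 3 h and 4.18 at 9 h. The log2 of the summed signal of the 8 tested markers was -1.48 to -0.78 at 0 h, 0.95 to 2.08 at 0.5 h and 4.07 to 4.34 at 9 h. S100a8, a calcium-binding protein of neutrophils and monocytes, rose by 3.12 at 0.5 h (adjusted P = 0.00033) and 6.12 at 9 h (1.6e-07), and Cxcr2, a chemokine receptor of neutrophils, by 3.93 at 3 h (0.00027). Of the granule genes, Mpo had 0.19 at 9 h and was not called, and Ngp was well above background on 1 array. Of 12 macrophage markers 11 were on the array and tested, and 8 were called over time (36.3% of all genes). Their summed level was 7.47 to 7.70 at 0 h, 7.72 to 7.91 on the 9 arrays of 0.5, 1 and 3 h, above every array of 0 h, and 7.33 to 7.71 at 9 h. At 9 h 3 were higher and 1 was lower (17% and 15.9% of all genes), with a median change of 0.06. Cd14 was higher at 9 h (2.15, 2.6e-05) and Adgre1, which encodes F4/80, was lower (-0.91, 0.0034). The part of leukocyte RNA in the rise of Mmp8, Mmp9 and Mmp12 was not tested.

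Some markers of resident cells were lower at 9 h, as were Mmp2 and Timp2, against 15.9% of all genes. All 12 Schwann cell markers were well above background on all arrays, as the labelled tissue should have, with a summed level of 9.77 to 10.02 at 0 h and 9.44 to 9.63 at 9 h, and 4 of the 12 were lower at 9 h, Pmp22 (-0.60) and Mag (-0.90) among them. The summed level of 8 fibroblast markers went from 8.89 to 8.95 at 0 h to 8.34 to 8.44 at 9 h, with 4 of them lower, and that of 7 endothelial markers from 5.77 to 5.90 to 5.32 to 5.36, with 3 lower. Neither list overlapped between 0 h and 9 h in its sum. None of 8 mast cell markers was called over time (36.3% of all genes) or at 9 h (17% higher and 15.9% lower of all genes). The part of these shifts in the falls of Mmp2, Mmp14 and Timp2 was not tested.

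**Figure D5:**
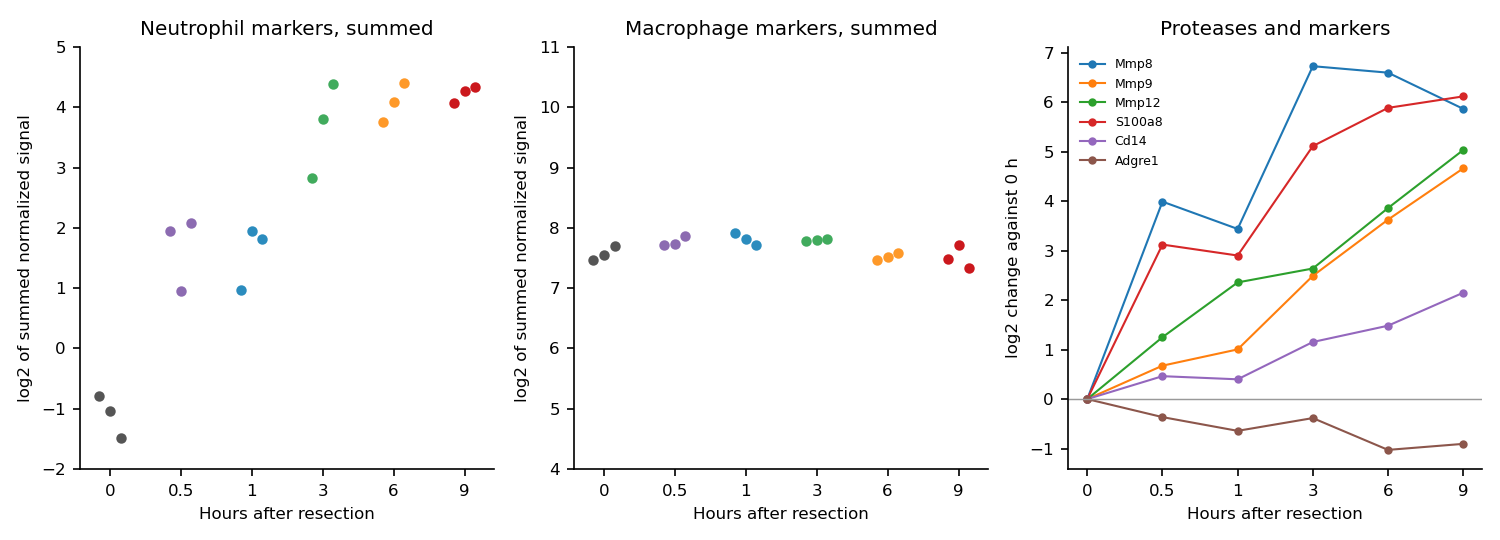
Left and middle, log2 of the summed normalized signal (vertical axis, the same span in both) of 8 neutrophil and 11 macrophage markers on each of 18 arrays, by hours after resection. Right, log2 change against 0 h of Mmp8, Mmp9, Mmp12 and 3 leukocyte markers. The neutrophil sum goes from -1.48 to -0.78 at 0 h to 4.07 to 4.34 at 9 h, and the macrophage sum stays between 7.33 and 7.91.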

How the data were processed

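RNA of proximal sciatic nerve was hybridized to 18 arrays, with each array's hour and replicate read from its labels. The authors deposited the scanner output of Agilent Feature Extraction (version 10.5.1.1 per the file headers), whose processed signal is a linear intensity with background subtracted and no normalization between arrays. The deposited matrix holds log2 values with nearly the same distribution on every array (the sorted values differ by at most 0.00168), as quantile normalization gives, and was used as an alternative. The deposited spot flags (outlier, saturation, control type, signal above background), each coded as a score, were taken from the files. No normalization of the signals is given in the sources used here.

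Control and outlier spots (58 to 179 outliers an array) were left out, log2 signals were taken relative to the 75th percentile of the array, and replicate spots were averaged per probe. A gene with several probes is described by its brightest tested probe and counts as called if any probe was. Of the 41012 probes 21166 were named through a RefSeq table by accession or symbol, all 10 genes by accession. The fit was limma's (prior degrees of freedom 1.94) on all 18 arrays, with moderated F-tests over 5 degrees of freedom and contrasts with 0 h and 1 h, two-sided. The number of arrays limits the precision. The script was tested on simulated data.

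Named genes were the 10 genes and, from each other list, up to 5 called genes with the largest change against 0 h, with further genes of the lists named for their values. Some genes that this rule names are not reported here. The 3 genes most like each of Mmp3, Mmp12 and Mmp9 are those with the highest Pearson r over 18 arrays among 11323 named genes well above background on all of them. The genes and lists were chosen with earlier results of these data known, and Mpo, Ngp, Elane, Ltf, Mmp1b, Mmp27 and the contrast of 9 h with 3 h after their values were seen. Alternatives were the deposited matrix, quantile or median scaling, normexp correction of the background with an offset of 50, other filters and thresholds, blocks for replicate number, scan day and slide, array weights, a trended robust prior, and leaving out each array. The slide block cannot separate slide from time, as each slide held arrays of 1 time-point. The labels do not say whether replicate numbers pair the samples. Deviations of samples with the same number correlated at -0.26 to 0.56 (median 0.07, 45 pairs), which cannot decide it.

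Promoter windows came from RefSeq (GRCr8), and probe positions from the files (rn4). R 4.3.3, limma 3.58.1, the data.table package (version 1.17.8), Python 3.11.15, pandas 2.3.3 and matplotlib 3.10.9 were used.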

Additional observations from a re-analysis of the deposited data

How the results depend on the processing

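The 3 arrays of each time-point, the dimness of Mmp3, Mmp9 and Mmp12 before 3 h, the scan days and the slides limit these results. The change of each gene's reported probe in the 9 contrasts was compared under 30 alternatives with the value as reported. Of these comparisons 2480 kept their direction and side of the threshold, where a change that was not called was taken to have no direction. In 104 a call was lost, in 38 a call was gained, and 2 reversed. Counts of called genes are not in this tally. The rises of Timp1 and Mmp3 against 0 h at 3, 6 and 9 h were called under each alternative that could be fitted. Mmp3 was not tested where a probe had to be well above background on all 18 arrays. Of the 9 contrasts and the F-test, normexp background correction gave the lowest counts of called genes: 2 over all time-points, 0, 2, 2 and 4 at 0.5, 3, 6 and 9 h against 0 h, 1, 2 and 2 at 3, 6 and 9 h against 1 h, 1 at 9 h against 3 h, and 11 of the other metalloproteinases, inhibitors, ADAM and ADAMTS genes together in place of 18. Under it the change of Mmp10 at 6 h against 1 h was -0.28 and that of Mmp13 at 9 h against 3 h -0.11, both reversed. The cause was not tested.

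With only the 6 genes well above background on all 18 arrays, 5 were called over all time-points, 5 at 6 h and 4 at 9 h against 0 h, and 2 at 3 h and 4 at 6 h against 1 h, since fewer genes were tested. Quantile normalization and the deposited matrix gave 0 at 0.5 h, and array weights 1 at 1 h. A block for scan day gave 3 at 9 h against 3 h and could be fitted only for 0.5 h against 0 h and for contrasts among 1 to 9 h. Leaving out each array in turn gave 0 to 1 genes at 0.5 h, 0 to 1 at 1 h, 2 to 4 at 3 h against 1 h and 3 to 6 at 9 h against 3 h.

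Samples share only a replicate number, so the block is no better founded than the fit without it. With the replicate number as a block 9 genes were called over all time-points, 1 at 0.5 h, 1 at 1 h (Mmp9, adjusted P = 0.043), 6 at 3 h, 8 at 6 h and 7 at 9 h against 0 h, 4, 8 and 7 at 3, 6 and 9 h against 1 h, and 6 at 9 h against 3 h. Deviations of samples with different numbers correlated at -0.52 to 0.38 (median 0.01, 90 pairs).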
